A study of Mus musculus with 12 samples.

Results

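The transcription factors of the hair matrix examined here are Lef1, Msx1, Msx2, Hoxc13, Foxn1, Foxq1, Dlx1, Dlx2, Dlx3 and Gata3. They were taken by name, as every probe whose gene name on the array equals one of these 10 symbols, which gave 13 of the 41174 probes and 10 of the 27373 gene names. Msx1 has 2 probes, Lef1 has 3, and each of the other 8 genes has 1. The array measured RNA of whole back skin of male C57BL/6J mice that were 8 weeks old at purchase, shaved, and then treated every day with 200 μL of one of 3 preparations. MXD was 3% minoxidil, N-CE was a 10% cell extract of the cactus Notocactus ottonis obtained by cold vacuum extraction, and VC was the vehicle of propylene glycol, ethanol and water. Skin was taken after 1, 2 or 3 weeks of treatment, written 1W, 2W and 3W. Each sample is a pool of RNA from 6 mice. A treated pool was set against VC skin of that week in 6 comparisons, and each was hybridized a second time with the dyes swapped. No spread between mice can be measured in these pools. Every SD of a fold is taken over 2 arrays, the original and the dye-swapped one, and covers measurement error only.

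Hair is built by the matrix, a dividing epithelium at the base of the growing follicle that surrounds the dermal papilla. Lef1 carries the Wnt signal to DNA together with beta-catenin, Msx1, Msx2, Dlx1, Dlx2, Dlx3 and Hoxc13 are homeodomain proteins, Foxn1 and Foxq1 are forkhead proteins, and Gata3 is a zinc finger factor. Foxn1 is the gene mutated in nude mice, Foxq1 in satin mice with altered shaft structure, Hoxc13 controls hair keratin genes, Dlx3 acts downstream of BMP and Wnt signals in the shaft, and Gata3 is needed for the inner root sheath and is also a factor of epidermis and T cells. The follicle makes matrix only during anagen, its growth phase.

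Promoter sequence was looked up because most of these genes moved together. The RefSeq table of promoters (GRCm38.p6) held an entry for 7 of the 10 genes, with 4 transcription starts for Lef1 and 10 promoters in all. Hoxc13, Foxq1 and Dlx3 had none. The 250 bases before the start are shown for 4 genes that had among the largest changes of the set or that held a motif, each written 5′ to 3′ on the strand of the gene, with motif matches in capitals.
Lef1, chr3:131110047-131110296, plus strand, first of its 4 starts: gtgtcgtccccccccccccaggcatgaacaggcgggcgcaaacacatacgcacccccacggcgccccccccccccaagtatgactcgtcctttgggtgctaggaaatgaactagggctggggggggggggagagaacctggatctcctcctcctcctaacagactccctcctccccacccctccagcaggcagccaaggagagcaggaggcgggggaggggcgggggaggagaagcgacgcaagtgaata
Msx2, chr13:53472781-53473030, minus strand: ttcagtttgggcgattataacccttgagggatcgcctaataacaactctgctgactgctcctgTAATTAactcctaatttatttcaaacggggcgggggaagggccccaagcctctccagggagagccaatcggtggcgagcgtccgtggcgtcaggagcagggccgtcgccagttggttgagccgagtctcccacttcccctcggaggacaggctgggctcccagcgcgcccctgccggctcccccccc
Foxn1, chr11:78386609-78386858, minus strand: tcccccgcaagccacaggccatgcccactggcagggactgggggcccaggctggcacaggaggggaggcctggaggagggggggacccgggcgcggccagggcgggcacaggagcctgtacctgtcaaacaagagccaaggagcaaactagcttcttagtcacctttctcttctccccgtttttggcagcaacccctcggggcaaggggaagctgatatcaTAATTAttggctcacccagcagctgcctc
Dlx2, chr2:71546755-71547004, minus strand: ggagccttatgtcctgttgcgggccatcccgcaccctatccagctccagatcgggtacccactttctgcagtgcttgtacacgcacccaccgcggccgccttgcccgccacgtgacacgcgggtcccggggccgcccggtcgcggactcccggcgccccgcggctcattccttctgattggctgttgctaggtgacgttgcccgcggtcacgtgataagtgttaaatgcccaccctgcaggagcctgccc

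The motifs were searched on both strands of the 250 bases. A LEF/TCF site (CTTTGAT), a homeodomain site (CAATTA), a HOX13 site (CAATAAA), a forkhead site (TGTTTAC) and a GATA site (AGATAAG) had no match in any of the 10 promoters, beside 3.21%, 7.17%, 4.2%, 3.17% and 2.74% of all 32851 promoters. The TATA box letters TATAAA matched in 1 of them, the last of the 4 Lef1 starts, 231 bases before that start on the minus strand, beside 12.4% of all promoters. The homeodomain core TAATTA, which was added after the sequences had been seen and reads the same on both strands, matched in Msx2 and Foxn1, with its first base 187 and 29 bases before the start, beside 4.84% of all promoters. These are matches of letters in a short window and say nothing of binding. The printed promoters of Lef1, Dlx2, Msx2 and Foxn1 held 66.4%, 66.4%, 61.6% and 63.2% G and C, against a median of 52.4% over all promoters. The Lef1 starts not printed held, in order, 66.4%, 50.8% and 44.8%.

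The probes are 60-mers placed on mm9. Lef1 was read by A_51_P501145 (chr3:130927036-130927095), by A_51_P420400, whose letters span 18162 bases of genome and therefore cross an intron, and by A_52_P333110 (chr3:130820056-130820115). The Dlx1 probe (chr2:71371499-71371558) and the Dlx2 probe (chr2:71381553-71381612) lie close together on chromosome 2 and on opposite strands. The brightest probe stood for a gene with several, which was A_51_P501145 for Lef1 and A_52_P561671 for Msx1. A fold is treated over VC, given as log2 of the geometric mean over the dye swap. A gene was called up-regulated or down-regulated if both arrays gave one direction with the scanner software's P for the spot below 0.01, and the mean fold exceeded 1.5 or was less than 0.75. That P compares the channels of a spot and not the conditions, so a call shows a difference between 2 pools.

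Members were called in MXD at 2W and in N-CE at 1W, and in opposite directions. In MXD at 2W all 10 genes were above background and 8 were up-regulated, where 6.21% of the 18751 measured genes were, and 0 were down-regulated, where 10% of genes were. In N-CE at 1W 9 genes were measured and 7 were down-regulated, where 2.77% of 18241 genes were, and 0 were up-regulated, where 0.543% were. The median log2 fold of the measured members was 1.17 ± 0.07 in the first (SD over 2 arrays) and -1.33 ± 0.16 in the second, beside medians of 0.03 and 0.02 over all genes. None of the 10 genes was called in MXD at 1W (1.25% of genes up and 1.27% down), MXD at 3W (0.293% and 0.287%), N-CE at 2W (0.118% and 0.0752%) or N-CE at 3W (0.204% and 0.214%). Their median there was 0.33 ± 0.03 in MXD 1W with 8 of 10 genes above 0, 0.13 ± 0.02 in MXD 3W with 9, 0.31 ± 0.14 in N-CE 2W with 10 and 0.19 ± 0.20 in N-CE 3W with 10. The same 7 genes, Lef1, Msx1, Msx2, Hoxc13, Foxn1, Dlx2 and Dlx3, were called in both comparisons, up with MXD at 2W and down with N-CE at 1W, out of 9 measured in both. Over all genes measured in both, 424 of 17696 (2.4%) showed this pair of calls, which was 38.4% of the 1103 genes up-regulated in the first and 84.8% of the 500 down-regulated in the second among those measured in both. The 2 comparisons used different VC pools.

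**Figure D1:**
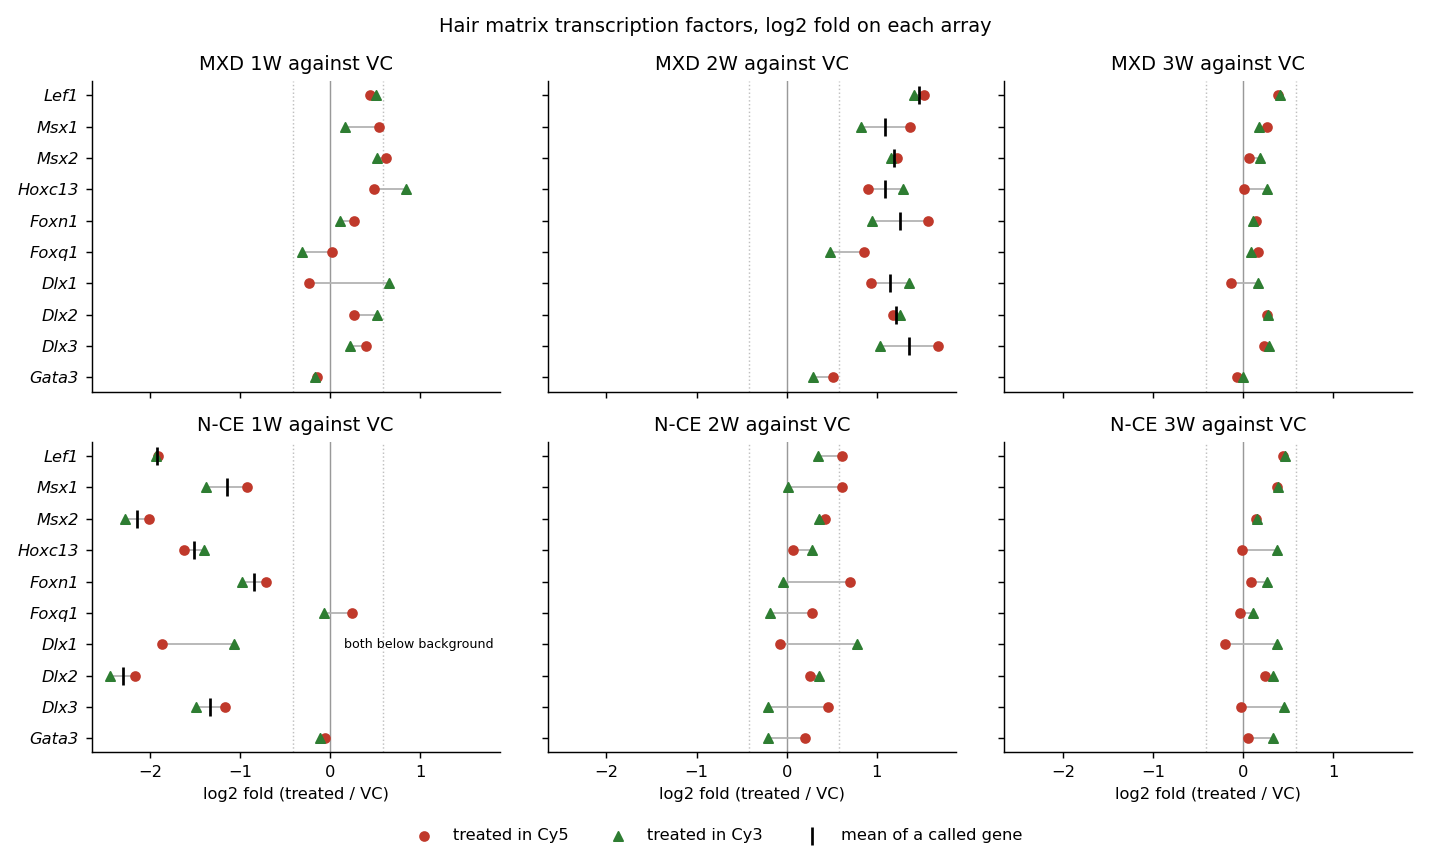
Log2 fold (treated over VC) of each of the 10 genes on the array with the treated pool in Cy5 (circle) and in Cy3 (triangle), 1 panel per comparison, with a black mark at the mean of a called gene and dotted lines at the folds of 1.5 and 0.75. In MXD 2W every point lies right of 0, and in N-CE 1W the 7 called genes lie between -2.44 and -0.72 on single arrays while Foxq1 and Gata3 stay near 0.

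Lef1, the Wnt effector, rose most in MXD at 2W, with log2 folds of 1.53 and 1.41 on the 2 arrays and a mean of 1.47 ± 0.08, a 2.77-fold increase. It stood at rank 134 from the top among 18751 measured genes. Under N-CE it read -1.91 and -1.94 at 1W, a mean of -1.92 ± 0.02, or 3.80-fold lower than VC. The arrays of each pair differed by far less than the distance between the comparisons. Outside these weeks Lef1 stayed at 0.40 to 0.49, at 0.47 ± 0.05 in MXD 1W, 0.40 ± 0.01 in MXD 3W, 0.49 ± 0.19 in N-CE 2W and 0.46 ± 0.01 in N-CE 3W, positive on all 8 of these arrays and below the fold of the call. The intron-crossing probe gave 1.42 ± 0.34 and -1.81 ± 0.54 in MXD 2W and N-CE 1W and was called the same way in both. Among all probes, 4.04% were up-regulated in the first and 1.49% down-regulated in the second. The probe A_52_P333110 was above background in 1 channel only, in MXD at 2W.

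Msx2 acts in the matrix downstream of BMP signals. Its probe is printed 10 times on each array, so the error of a single spot can be seen. In MXD at 2W the copies ran from 1.20 to 1.25 on one array and from 1.15 to 1.21 on the other, for a mean of 1.20 ± 0.04 (2.29-fold). The copies of N-CE at 1W ran from -2.07 to -1.97 and from -2.35 to -2.17, for a mean of -2.15 ± 0.19 (4.42-fold lower). No copy of one comparison came near a copy of the other. In MXD at 1W Msx2 was 0.62 and 0.52 on the 2 arrays, with the software's P at 0.00323 and 0.0142, and fell short of a call by that P and by a fold of 1.49. It read 0.13 ± 0.09 in MXD 3W, 0.39 ± 0.05 in N-CE 2W and 0.15 ± 0.01 in N-CE 3W.

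Msx1, the paralog of Msx2, read 1.37 and 0.82 in MXD at 2W, a mean of 1.10 ± 0.39 (2.14-fold). It was lower with N-CE at 1W, at -0.92 and -1.38, a mean of -1.15 ± 0.32 (2.22-fold lower). The dyes disagreed more for Msx1 than for Msx2, and in N-CE at 2W its arrays gave 0.62 and 0.02. A further Msx1 probe, A_51_P218196, lies 5 bases away from the first on mm9 and is also printed 10 times, but it was near background: its copies ran from 0.68 to 2.09 on one array of MXD 2W, where the SD over copies was 0.480 against 0.013 for Msx2. It was called in MXD at 2W with 1.31 ± 0.33 (0.34 with the normexp background correction), and in N-CE at 1W neither pool was above background on it.

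**Figure D2:**
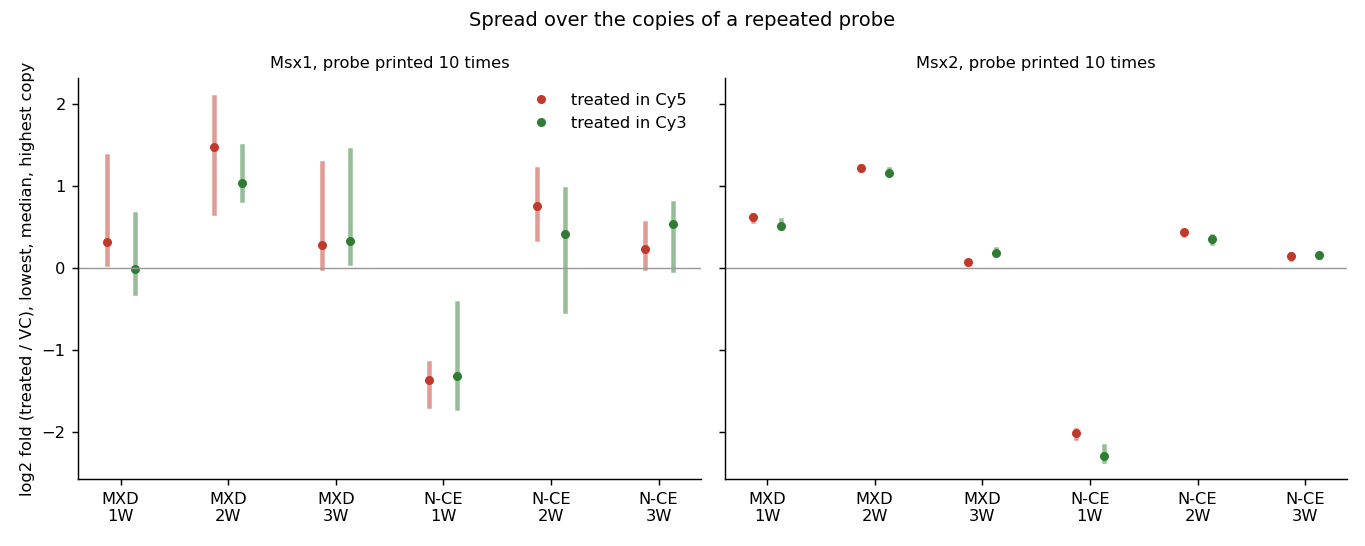
Lowest, median and highest log2 fold (treated over VC) among the copies of the Msx1 probe A_51_P218196 and the Msx2 probe A_51_P388661 that are printed 10 times per array, for each comparison and dye orientation. The SD over copies was 0.009 to 0.062 for Msx2 and 0.201 to 0.563 for the dim Msx1 probe.

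Dlx2 had the deepest fall of the set with the software's background correction, though not with normexp. It read -2.17 and -2.44 in N-CE at 1W, a mean of -2.31 ± 0.19, 4.95-fold lower than VC and rank 78 from the bottom among 18241 measured genes. In MXD at 2W it read 1.18 and 1.26, a mean of 1.22 ± 0.06 (2.32-fold). At the other weeks it stayed between 0.27 and 0.39 with the same sign on both arrays of every comparison. Dlx3, which lies in another Dlx cluster, read 1.68 and 1.04 in MXD at 2W (1.36 ± 0.45, 2.56-fold) and -1.17 and -1.49 in N-CE at 1W (-1.33 ± 0.22, 2.52-fold lower, or -0.84 with the normexp background correction). Both arrays gave the direction, with a wider gap between them at MXD 2W than for Dlx2. Dlx1, the neighbour of Dlx2, was close to background. It was up-regulated in MXD at 2W with 0.94 and 1.36 (1.15 ± 0.30), and in N-CE at 1W neither pool was above background, so no fold can be given there.

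Hoxc13 was also dim. It read 0.91 and 1.29 in MXD at 2W, a mean of 1.10 ± 0.27 (2.14-fold). The N-CE arrays of 1W gave -1.62 and -1.41, a mean of -1.51 ± 0.15 (2.85-fold lower), with the N-CE pool above background on 1 of the 2 arrays. The normexp background correction gave 0.73 and -0.42 for these values, so the size of the fall is uncertain. By brightest probe it was the only member past the fold of 1.5 in MXD at 1W, at 0.49 and 0.84 (0.66 ± 0.25), which 4.69% of all probes were, and it was not called since P was 0.0317 on one array.

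Among the forkhead genes, Foxn1 moved with the others and Foxq1 did not move with them in N-CE. Foxn1 read 1.57 and 0.95 in MXD at 2W, a mean of 1.26 ± 0.44 (2.39-fold), and -0.72 and -0.98 in N-CE at 1W, a mean of -0.85 ± 0.19 (1.80-fold lower), the smallest of the 7 called falls. Foxq1 read 0.86 and 0.48 in MXD at 2W, a mean of 0.67 ± 0.27 (1.59-fold), which passed the fold, as 10.9% of all probes did, but not P on the array with MXD in Cy3 (0.0224). In N-CE at 1W Foxq1 read 0.24 and -0.07, a mean of 0.08 ± 0.22, which differs from 0 by less than the spread of the arrays. Gata3 read 0.52 and 0.29 in MXD at 2W (0.40 ± 0.16, 1.32-fold) and -0.06 and -0.11 in N-CE at 1W (-0.09 ± 0.03). Neither Foxq1 nor Gata3 was called in any comparison, and Gata3 was below 0 on both arrays of MXD at 1W as well (-0.16 ± 0.02).

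At 1W both treatments were set against VC skin of the same week. Side by side, MXD and N-CE gave 0.47 and -1.92 for Lef1, 0.57 and -2.15 for Msx2, 0.39 and -2.31 for Dlx2, and 0.18 and -0.85 for Foxn1. Foxq1 gave -0.15 and 0.08, and Gata3 gave -0.16 and -0.09. The arrays of N-CE gave the same sign for 5 of the 10 genes at 2W and for 6 at 3W. Across all measured genes the log ratios of the 2 arrays correlated with r = 0.53 in MXD 2W, 0.39 in N-CE 1W, 0.23 in MXD 1W, 0.08 in N-CE 3W, 0.03 in MXD 3W and -0.19 in N-CE 2W. Genes are not independent replicates, so these r describe the array pairs. Whole skin also cannot tell fewer matrix cells from less RNA per cell.

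The levels in the pools show the course over the weeks behind these ratios. Level here is the log2 channel intensity after background correction and normalization between arrays, with 4 arrays for a VC pool and 2 for a treated pool, and week cannot be told apart from slide. Msx2 in VC stood at 10.74 ± 0.08 in the first week, 11.83 ± 0.12 in the second and 12.31 ± 0.12 in the third. Foxn1 went from 9.11 ± 0.10 to 10.12 ± 0.44 and 10.71 ± 0.19, and Lef1 from 9.66 ± 0.08 to 10.04 ± 0.15 and 10.76 ± 0.23. The VC level at 3W exceeded that at 1W for all 10 genes, by 0.17 for Msx1 up to 1.61 for Foxn1. The median over all genes above background was -0.02, a value that the normalization between arrays holds near 0. The course was not steady for all of them: from 1W to 2W the VC level of Msx1 fell by 0.71 and that of Gata3 by 0.04. From 1W to 2W the N-CE pools gained more than the VC pools for 8 of the 10 genes, all but Foxq1 and Gata3: Msx2 went from 8.79 ± 0.14 at 1W to 12.16 ± 0.21 at 2W, a gain of 3.38, and Lef1 from 8.07 ± 0.08 to 10.41 ± 0.03, a gain of 2.34. In the MXD pools Msx2 peaked at 2W, at 13.07 ± 0.06, and stood at 12.53 ± 0.05 at 3W. Lef1, Msx2, Hoxc13, Foxn1, Dlx2 and Dlx3 all had their highest level of the 9 pools in MXD at 2W and their lowest in N-CE at 1W. Neighbours in the middle of that order did not separate: for Foxn1 at 3W the N-CE pool (10.73 ± 0.08) lay within the range of the VC arrays. The VC pool of a week read on MXD arrays and on N-CE arrays differed by -0.14 to 0.26 at 1W, -0.14 to 0.62 at 2W and -0.71 to 0.43 at 3W, which is the error of such between-array values.

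**Figure D3:**
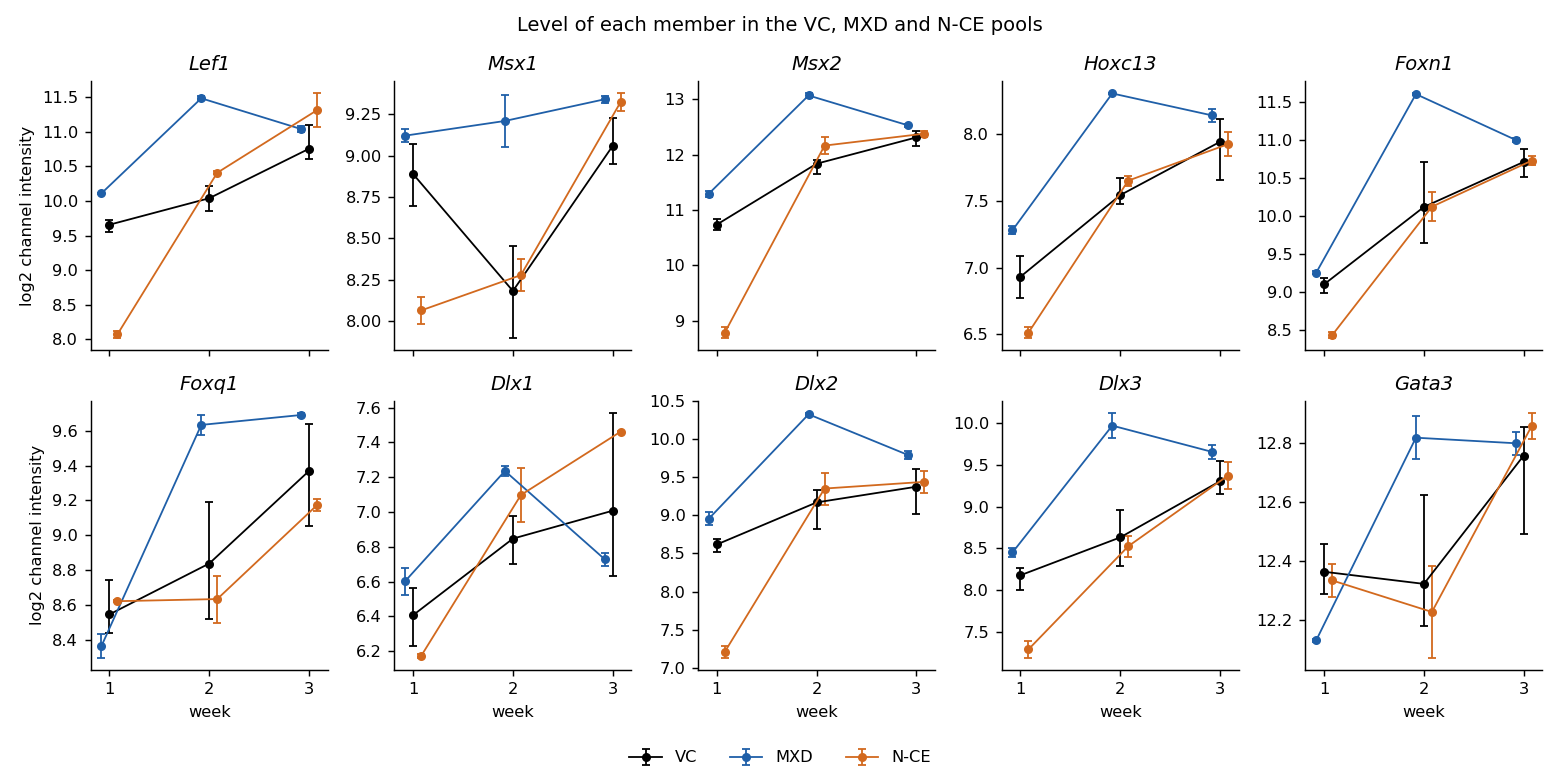
Log2 channel intensity of the 10 genes (brightest probe) by week in the VC, MXD and N-CE pools, as the mean with bars from the lowest to the highest array (4 arrays for VC, 2 for each treated pool). For Msx2 the N-CE pool stands at 8.79 at 1W against 10.74 in VC, and at 12.38 against 12.31 at 3W.

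With the weeks taken as replicates, the only spread between pools that the design holds, limma's moderated test on the 3 weekly folds called 0 of the 13 member probes in MXD, in N-CE or in their difference. The lowest member p adjusted over all probes by limma was 0.626 in MXD, 1 in N-CE and 0.75 for the difference, and 0 of the 13 probes were under an unadjusted p of 0.05 in each of these fits. As examples of the mean over weeks, Lef1 averaged 0.78 ± 0.30 (SE) in MXD and -0.33 ± 0.69 in N-CE.

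The genes around these factors were counted with the same calls. Over all measured genes, 6.21% were up-regulated and 10% down-regulated in MXD at 2W. In N-CE at 1W 0.543% were up-regulated and 2.77% down-regulated. Of 14 Wnt partners and targets, 4 were up-regulated in MXD at 2W: Tcf7 (1.10 ± 0.27), a relative of Lef1, Wnt5a (1.16 ± 0.05), a ligand, Bcl9 (0.91 ± 0.47), a beta-catenin cofactor, and Nkd1 (0.80 ± 0.17), a feedback inhibitor. Wnt5a (-0.79 ± 0.09) was the 1 that was down-regulated in N-CE at 1W. Axin2, the usual readout of the pathway, gave -0.03 ± 0.16 and -0.28 ± 0.39. Of 16 BMP and Shh genes, 7 were up-regulated in MXD at 2W, among them Shh (1.20 ± 0.01, or 0.74 with normexp), the ligand made in the matrix, Bambi (1.18 ± 0.19, or 1.14), a decoy BMP receptor, and Smad7 (1.16 ± 0.17, or 0.76), an inhibitory Smad. In N-CE at 1W 3 of these 16 were down-regulated, Bambi with -1.26 ± 0.10, and Shh and Gli1 with a pool that was not above background, so that no fold is given.

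Hair shaft genes include targets of Hoxc13 and Foxn1. All 13 on the array were up-regulated in MXD at 2W, with a median of 1.35 ± 0.34, and 12 were down-regulated in N-CE at 1W, with a median of -2.33 ± 0.19. Dsg4, a desmosomal cadherin of the shaft, read 1.91 ± 0.12 and -2.85 ± 0.79 (-1.13 with the normexp background correction), and the acidic hair keratin Krt33b read 1.46 ± 0.12 and -2.73 ± 0.17. Krt84 was the exception, at 1.39 ± 0.19 and 0.05 ± 0.05. Inner root sheath genes showed 6 of 6 measured up and 7 of 7 down, with Krt25 at 1.42 ± 0.21 in the first and Tchh, trichohyalin, at -3.06 ± 0.00 in the second. In MXD at 1W 4 of the 13 shaft genes were up-regulated (1.25% of all genes), at a median of 0.61 ± 0.11. The median of the members was lower there, at 0.33 ± 0.03, with the uncalled Hoxc13 (0.66, or 0.35 with normexp) and Msx2 (0.57) highest.

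Of 17 paralogs of the members measured in MXD at 2W, Tcf7 and Dlx4 (1.20 ± 0.33, or 0.75 with normexp) were up-regulated, where 6.21% of all genes were, and Hoxc9 (-0.98 ± 0.36) and Hoxc10 (-0.92 ± 0.00, or -0.57) were down-regulated, where 10% were, at a median of -0.21 ± 0.04. With N-CE at 1W 1 of 16 was down-regulated, Dlx4, with a pool below background. Hoxc9 and Hoxc10 belong to the cluster of Hoxc13, which rose in MXD at 2W, but the down count of the paralogs lay near the share over all genes. Of the same cluster Hoxc4 (0.13 ± 0.22), Hoxc6 (-0.13 ± 0.40) and Hoxc8 (-0.01 ± 0.18) were not called. Hoxc5 was not called either, with a pool below background. Of 23 other transcription factors of the follicle, 9 were up-regulated in MXD at 2W, beside 6.21% of all genes, with Tbx1 at 1.19 ± 0.13 and Runx1 at 1.18 ± 0.37. A further 3 were down-regulated, Satb1 (-1.24 ± 0.37), Bcl11b (-0.85 ± 0.13) and Nfatc1 (-0.80 ± 0.12), a count near the 10% over all genes. In N-CE at 1W 8 of the 23 were down-regulated, beside 2.77% of all genes, among them Foxe1 (-1.67 ± 0.25, or -0.57 with normexp), Tbx1 (-1.24 ± 0.05) and Lhx2 (-1.21 ± 0.05). In that comparison 0 were up-regulated, beside 0.543% of all genes.

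**Figure D4:**
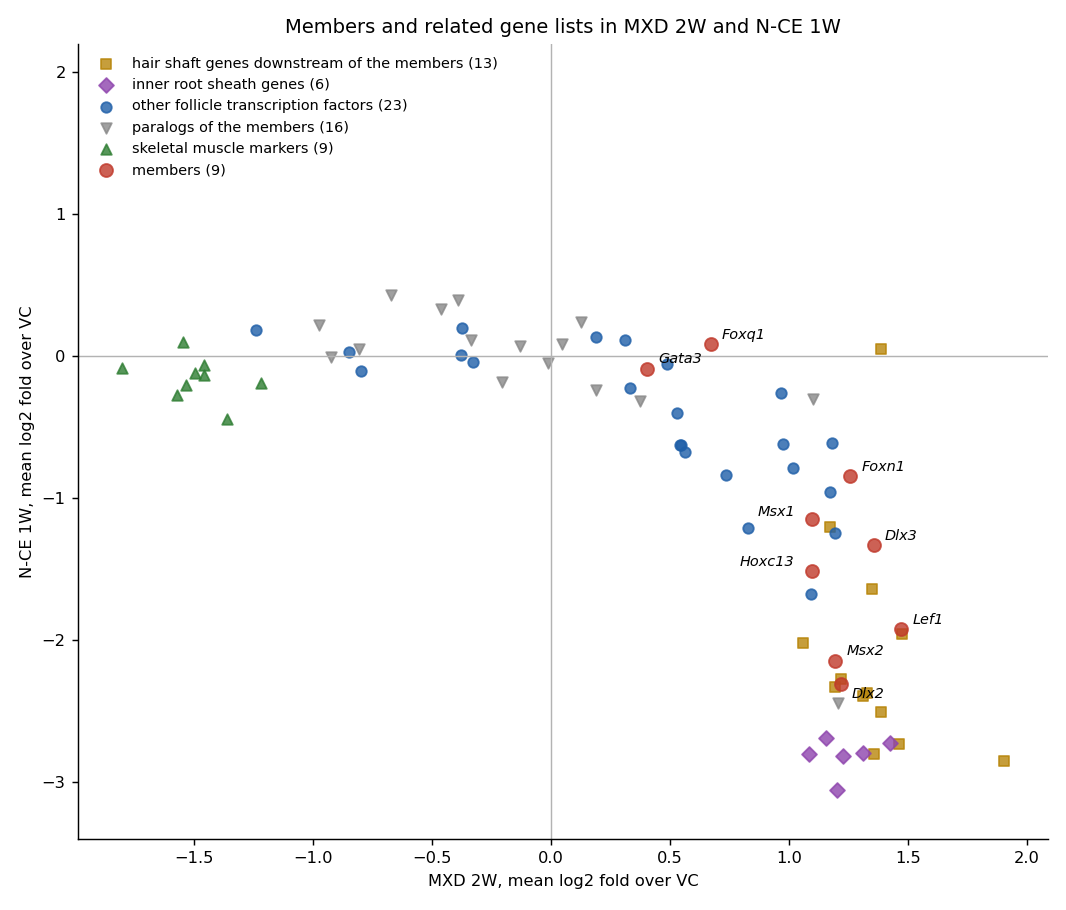
Mean log2 fold over VC in MXD 2W (x axis) and N-CE 1W (y axis) for the members and 5 related gene lists, with the number of genes measured in both in parentheses. The 7 members called in both lie at lower right with the root sheath genes and all shaft genes but Krt84. Foxq1 and Gata3 lie near 0 on the y axis, and muscle genes lie at far left. Dlx4 is the paralog drawn nearest to Dlx2, but a pool was below background for it in N-CE 1W (-0.52 there with normexp).

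Markers of other cells moved in the same pools. Their counts stand beside 10% of all genes down and 6.21% up in MXD at 2W, and 2.77% down in N-CE at 1W. Skeletal muscle markers were down-regulated for 10 of 10 genes in MXD at 2W (median -1.48 ± 0.14), with a summed level of 117759 to 182146 on the MXD channels against 394604 to 398979 on the VC channels, and for 0 of 9 in N-CE at 1W. Dermal fibroblast markers gave 3 of 6 down in MXD at 2W (summed level 119080 to 155693 against 241005 to 244852) and 0 of 5 in N-CE at 1W. Adipocyte markers gave 4 of 6 down (59993 to 63437 against 78440 to 84297) and 0 of 6, and T cell markers gave 5 of 10 down with 1 up, Cd4, and 0 of 9. Melanocyte markers, which mark the pigment cells of the bulb, took the direction of the factors in both comparisons: 8 of 8 were up-regulated in MXD at 2W, their summed level being 39761 to 42478 against 17460 to 19324, and 6 of 7 were down-regulated in N-CE at 1W, 5092 to 5476 against 14194 to 14237. They parted from the factors in MXD at 1W and 3W, where 1.25% and 0.293% of all genes were up-regulated. There Dct (0.76 and 0.75), Tyrp1 (0.78 and 0.81), Mlana (0.72 and 0.73) and Oca2 (0.93 and 0.93) were up-regulated and none of the 10 factors was. Mitosis genes also took the direction of the factors in MXD at 2W and N-CE at 1W, 9 of 10 up with Top2a at 1.24 ± 0.01, and 9 of 10 down with Mki67 at -1.20 ± 0.08. Epidermal markers gave 3 of 7 down and 1 up in MXD at 2W and 0 of 6 in N-CE at 1W, and the epidermal, fibroblast and hair shaft markers that gave a fold were above background. Krt5 and Dcn gave none in N-CE at 1W, since an outlier spot was left out on 1 array. The part of the mix of cells in the values of the 10 factors was not tested. Housekeeping genes had medians of 0.05 ± 0.03 and -0.01 ± 0.12.

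The profile of the members was compared with that of every other gene over all 12 arrays. Likeness was the root mean square difference of the 12 log2 ratios from the median of the 8 members above background in both channels of every array, over 14626 genes. Msx1 lay at 0.13 and Dlx3 at 0.15, both being among the 8 members that define the median, and the 5 nearest genes outside the set were Mxd3 (0.15), a MAX dimerization factor, Cnih2 (0.15), Mybl2 (0.15), a cell cycle transcription factor, Fras1 (0.16), a basement membrane protein, and Plk1 (0.17), a mitotic kinase. Mybl2 read 1.15 in MXD at 2W and -1.39 in N-CE at 1W. Lef1, Msx2 and Dlx2 lay farther out, at 0.38, 0.41 and 0.47, with falls in N-CE at 1W deeper than the median of -1.24. Foxq1 and Gata3 were the least alike of the 8, at 0.61 each. This is a description of 12 arrays that share VC pools in groups of 4.

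The size of the changes depended on the background correction, most of all for the dim members. With normexp and loess in place of the software's correction, all 18 called values of member probes kept their sign, and their log2 folds came to 0.26 to 0.98 of the first values, with a median of 0.80. Msx2 moved little, from 1.20 to 1.17 in MXD at 2W and from -2.15 to -1.95 in N-CE at 1W. Dlx2 went from -2.31 to -1.39 in N-CE at 1W, Hoxc13 from -1.51 to -0.42, and Dlx1 from 1.15 to 0.46 in MXD at 2W. The order of the falls changed with it, so that Msx2 and Lef1 (-1.57) then lay below Dlx2.

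**Figure D5:**
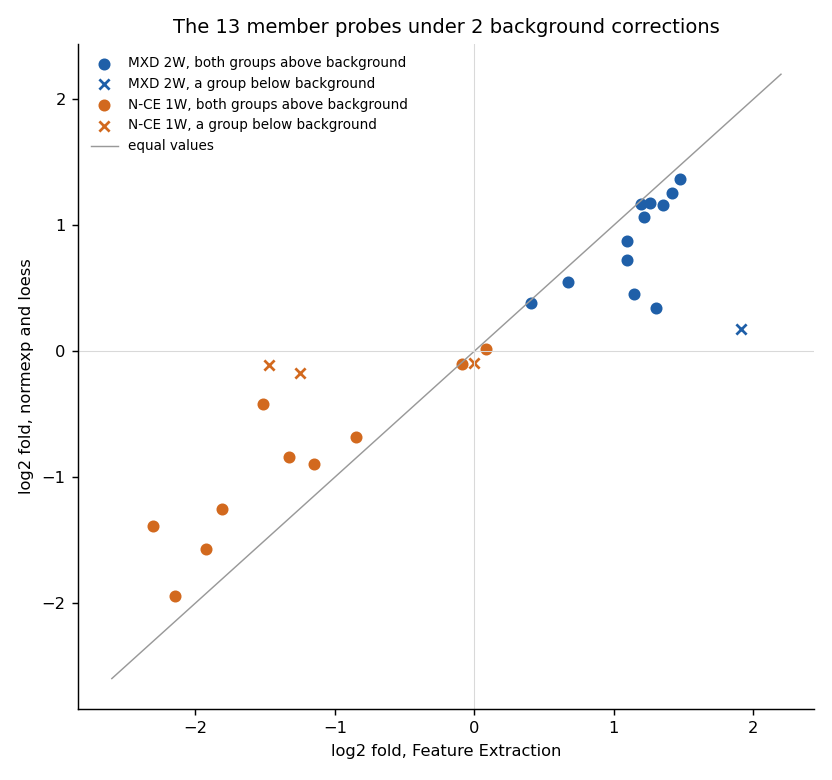
Mean log2 fold over VC of the 13 member probes under the software's background correction (x axis) and under normexp with loess (y axis), for MXD 2W and N-CE 1W, with crosses where a pool was below background and a line of equal values. Bright probes such as Msx2 (-2.15 and -1.95) lie near the line, and dim ones such as Hoxc13 (-1.51 and -0.42) lie toward 0.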

How the data were processed

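The authors pooled total RNA of whole back skin from 6 mice and hybridized every treated pool together with VC RNA of that week to Agilent 2-colour arrays, once in each dye orientation. The 4 arrays of a given week were treated as sharing a slide and their VC RNA, going by the week label alone. The authors deposited Feature Extraction output (version 12.0.3.1 in the file headers, 11.0.1.1 in the submitters' processing notes). The deposited log10 ratio is Cy5 over Cy3 after the software's background subtraction and dye normalization. The deposited p-value comes from the software's error model of the spot. The deposited intensity of each channel was used raw and processed, and the deposited matrix equals the log10 ratio of processed signals. Spots above background made up 57.0% to 69.6% of a channel, and 143 to 355 outlier spots per array were left out.

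Ratios were turned to log2 of treated over VC, copies of a probe averaged, and the dye swap averaged as 1 replicate. Repeated probes took the median P. A gene was measured if its brightest probe was well above background in any channel of the comparison. Levels came from normexp (offset 50), loess and Aquantile. Calculations used R 4.3.3 with limma 3.58.1, and Python 3.11.15 with numpy 2.4.6, pandas 2.3.3 and matplotlib 3.10.9. The limma test (lmFit, eBayes) took the 3 weekly folds of all probes, with p-values adjusted by Benjamini-Hochberg. Tested on simulated data, the calls recovered 144 to 160 of 200 probes shifted by a log2 of 1.5. Unshifted probes were given opposite signs on the 2 arrays and so could not be called, which leaves false calls unmeasured. The limma fit recovered 36, 105 and 180 of 200 at 1.5, 3 and 6.

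The members and gene lists were chosen with earlier results of these data known. Genes named beyond the members are the 5 most similar profiles and, per list, the called genes with the largest change (at most 3 per comparison, or all where 5 or fewer were called). Axin2, Krt84, the uncalled Hoxc genes, the named melanocyte markers and the summaries of marker lists were added after their values were seen. Genes of the lists that no probe carries by name were left out: Krt81, Krt72, Krt73, Krt74, Dlx1as, Hoxc11, Foxi3 and Grhl3. The number of arrays limits the precision. Alternatives covered the P and fold limits, normexp with loess, dim probes, each array alone, outlier spots, the matrix values, all probes of a gene, weeks left out and the slide as a random block.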

Additional observations from a re-analysis of the deposited data

Results flagged for a closer look

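For 8 member probes the direction was opposite in 2 comparisons, up-regulated in MXD at 2W and down-regulated in N-CE at 1W, on both arrays of each. The log2 fold in the first minus that in the second was 3.52 for Dlx2, 3.40 and 3.23 for the Lef1 probes A_51_P501145 and A_51_P420400, 3.34 for Msx2, 2.69 for Dlx3, 2.61 for Hoxc13, 2.25 for Msx1 and 2.11 for Foxn1. These comparisons differ in treatment and in week, the difference itself was not tested, and limma's fit of MXD minus N-CE over the 3 weeks called 0 of the 13 member probes (lowest adjusted p 0.75 by limma).

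The level of the same VC pool on the 4 arrays of a week held 1 array far from the other 3 in 5 of 32 cases. The limit is Dixon's 95% critical value of 0.829 for the gap over the range, which chance alone would pass in about 1.6 of 32. The ratios were 0.970 for Msx2 at 2W, 0.929 for Gata3 at 3W, 0.858 for Dlx2 at 2W, 0.850 for Lef1 at 3W and 0.847 for Gata3 at 2W. For Msx2 at 2W the lowest array read 11.65 and the others 11.89 to 11.90.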

How the results depend on the processing

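The 8 members called in MXD at 2W came to 7 to 9 and the 7 called in N-CE at 1W to 6 or 7 under the 10 alternatives, with no member in the other direction. Looser rules called more of all genes too. By fold alone 10.9% of all probes were up in MXD at 2W. On the Cy5 and the Cy3 array alone 12.8% and 10.1% of all genes were, beside 9 and 8 of 10 members. In N-CE at 1W 4.23% and 4.6% were down on single arrays, beside 7 of 9 members on each. These single-array shares were added after seeing the data. The 0 calls of MXD at 1W became 1 by fold alone, with the matrix values and with the mean over the probes of a gene, and 1 on either array alone (2.85% and 2.54% of all genes up). The 0 calls of N-CE at 2W became 3 on the array with the treated pool in Cy5 and 1 on the other, where 1.28% and 1.85% of all genes were up-regulated (a share added after seeing the data). With normexp and loess the median went to 0.26 in MXD 1W, 0.97 in MXD 2W and -0.84 in N-CE 1W. On the array with the treated pool in Cy3 alone it was 0.37 in MXD 1W, 1.10 in MXD 2W, 0.19 in MXD 3W, 0.15 in N-CE 2W and 0.36 in N-CE 3W, and in Cy5 alone it was 0.16 in MXD 3W and 0.07 in N-CE 3W. The cause was not tested. No called member probe reversed under normexp, with outlier spots kept or with the matrix values. Each array alone could not reverse a call, since a call needs one direction on both arrays. Normexp moved 21 of 78 values by at least the SD of the arrays. The other 4 settings counted 1 each, Lef1 probe A_52_P333110 in N-CE at 1W, which read 0 on both arrays with an SD of 0. On a single array no other value could reach that SD from the mean of 2. Limma called 0 member probes under all 6 alternatives of each fit, each week left out included, with lowest adjusted p of 0.405 to 1. Up to 8 of the 13 member probes were under an unadjusted limma p of 0.05 (MXD minus N-CE with normexp), as were 2643 of all 40820 probes. With only probes above background, 7 of 9 were for that difference (1614 of 21402 probes), 7 of 11 for MXD (2430 of 22583) and 0 of 9 for N-CE (291 of 21792). No paired analysis was possible because the groups share only the replicate number 1; pools were paired by week alone, in the fit of MXD minus N-CE. Signal over background limits Dlx1, Hoxc13 and the second Msx1 probe.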
